A study of Mus musculus with 24 samples.

Results

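B cell progenitors that lacked PLCγ1 alone were compared with wild-type B cell progenitors, using 3 libraries of genotype Plcg1-/-Plcg2+/+ and 3 libraries of genotype Plcg1+/+Plcg2+/+ out of the 24 libraries of the study. The libraries were chosen by their labelled cell population and genotype and not by any measured value. The labels define the cells as bone marrow cells sorted for B220 and the IL-7 receptor and against surface IgM, a gate that holds pro-B and pre-B cells. According to the study's methods, donor marrow was transplanted into irradiated wild-type recipients and the sorted cells were donor derived. All donor genotypes carried the MxCre transgene, whose Mx promoter is driven by type I interferon, together with a YFP reporter of recombination, and all donors received poly(I:C), a double-stranded RNA that induces interferon. Deletion of floxed Plcg1 thus depended on that induction, whereas Plcg2-/- was a germline deletion. Mice of both sexes on a mixed 129 and C57BL/6 background were used. A further pair of comparisons served as reference: Plcg1-/-Plcg2-/- against Plcg1+/+Plcg2-/- B progenitors (3 libraries each), which share no library with the main comparison, and Plcg1-/-Plcg2+/+ against Plcg1+/+Plcg2+/+ libraries labelled CLP (common lymphoid progenitors, sorted as Lin-IL-7R+; 3 libraries each), which carry the same mouse numbers as the B progenitor libraries.

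PLCγ1 and PLCγ2 are phospholipases that are recruited to activated receptors and cleave a membrane phosphoinositide into inositol trisphosphate and diacylglycerol. Inositol trisphosphate opens calcium stores and activates calcineurin and the NFAT factors, while diacylglycerol activates protein kinase C and Ras guanine nucleotide exchange factors, with NF-kB and ERK downstream. In early B cells the enzymes lie downstream of the pre-B cell receptor, and the study placed them in the IL-7 receptor pathway as well. The comparison asks which transcripts depend on PLCγ1 when PLCγ2 is intact.

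The 3 wild-type libraries held 9826070 to 14212100 reads in genes and the 3 Plcg1-/-Plcg2+/+ libraries held 5735870 to 7515520. Most reads in these files were counted as no_feature, that is, assigned to no gene. The counter and its settings are not given in the sources used here. Their share was 71.4, 62.5 and 59.9% in wild-type replicates 1, 2 and 3 and 66.5, 87.3 and 73.6% in Plcg1-/-Plcg2+/+ replicates 1, 2 and 3. The means were 64.6% ± 6.05 and 75.8% ± 10.6 (SD, n = 3 each), a difference of 11.2 percentage points, and the ranges overlapped. A two-sided exact permutation test gave p = 0.2, where 0.1 is the smallest p that 3 against 3 libraries allow. With so few libraries the test can neither show nor exclude a difference. Plcg1-/-Plcg2+/+ replicate 2 stood apart from the other 5 libraries in this share. Values of genes are given below as CPM, the reads of a gene scaled to a common total of gene reads with TMM factors, in the order of replicates 1, 2 and 3. A read count of 3 corresponds to 0.211 to 0.305 CPM in the wild-type and 0.399 to 0.523 CPM in the Plcg1-/-Plcg2+/+ libraries.

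The transcript of the deleted gene did not separate the genotypes. Plcg1 (chr2:160731310-160775760, mm10) was at 113, 86.5 and 80.7 CPM in wild-type libraries and at 60.8, 80.2 and 99.3 CPM in libraries labelled Plcg1-/-Plcg2+/+. The groups overlapped, with a log2 fold change of -0.22 ± 0.34 (SE) and an edgeR adjusted p of 0.744. The counts cover the whole gene and the sources used here do not give the floxed exons, so loss of the floxed part was not checked by these values. Plcg2 (chr8:117498275-117635142, mm10) was at 215, 243 and 246 CPM in wild-type and at 184, 201 and 233 CPM in Plcg1-/-Plcg2+/+ libraries. Its log2 fold change was -0.19 ± 0.16 (SE) and its edgeR adjusted p 0.558. In the germline Plcg2-/- libraries with intact Plcg1, Plcg2 was at 94.9, 96.5 and 79.6 CPM, below every library of the 2 Plcg2+/+ genotypes. Among the 12 tested members of the phospholipase C family, 9 had a log2 fold change above 0 and the median was 0.63. Their median level was 10.6 CPM, and the 3000 genes at 2.31 to 13.2 CPM had a median log2 fold change of 0.44. Plcb1, a G protein-activated isoform, was at 5.69, 3.34 and 10.7 CPM in wild-type and at 18.1, 13.7 and 19.4 CPM in Plcg1-/-Plcg2+/+ libraries, without overlap (log2 fold change 1.36 ± 0.41, edgeR adjusted p = 0.467). The median of the family was 0.44 without Plcg1-/-Plcg2+/+ replicate 2 and 0.05 with the no_feature share in the model.

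Expression of 9 of 15001 tested genes (0.06%) passed both limits set for a change between the genotypes, an adjusted p no higher than 0.05 and a log2 difference of 0.5 or more in either direction (edgeR quasi-likelihood test with Benjamini-Hochberg adjustment). Of these, 5 were higher (0.0333% of the genes tested) and 4 were lower (0.0267%) in Plcg1-/-Plcg2+/+ libraries. The higher genes were Xist and Tsix, which lie in the X-inactivation centre, and Rnase12, Ctse and Kif5a. The lower genes were Uty, Ddx3y, Eif2s3y and Kdm5d, all on chromosome Y. DESeq2 on the same 12 libraries called 24 genes (0.144%), 18 of them higher (0.108%), and these included all 9.

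The 6 sex-linked genes separated the genotypes completely. Xist, the noncoding RNA that coats the inactive X chromosome, was at 88.8, 49.5 and 87.0 CPM in wild-type and at 2209, 1500 and 2075 CPM in Plcg1-/-Plcg2+/+ libraries (log2 fold change 4.68 ± 0.32, edgeR adjusted p = 7.69e-05). Ddx3y, a Y-linked RNA helicase, was at 194, 175 and 185 CPM in wild-type and at 15.2, 12 and 13.9 CPM in Plcg1-/-Plcg2+/+ libraries, a log2 fold change of -3.75. All 3 libraries of each genotype thus carried the same sex-linked pattern, and sex and genotype cannot be told apart in this comparison. The Plcg2-null B progenitors carried it in the same direction. Xist was at 115, 61.8 and 123 CPM in Plcg1+/+Plcg2-/- against 1670, 2068 and 1600 CPM in Plcg1-/-Plcg2-/- libraries. Tsix overlaps Xist on the opposite strand, and the library kit does not mark strand, so reads of the pair cannot be parted. Of 7 X-linked partners of Y-linked genes, Eif2s3x (log2 fold change 0.40) and Kdm6a (0.42) were higher at an unadjusted p of at most 0.05. That held for 7.29% of all genes, and 0.02 was the median of the 7.

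**Figure D1:**
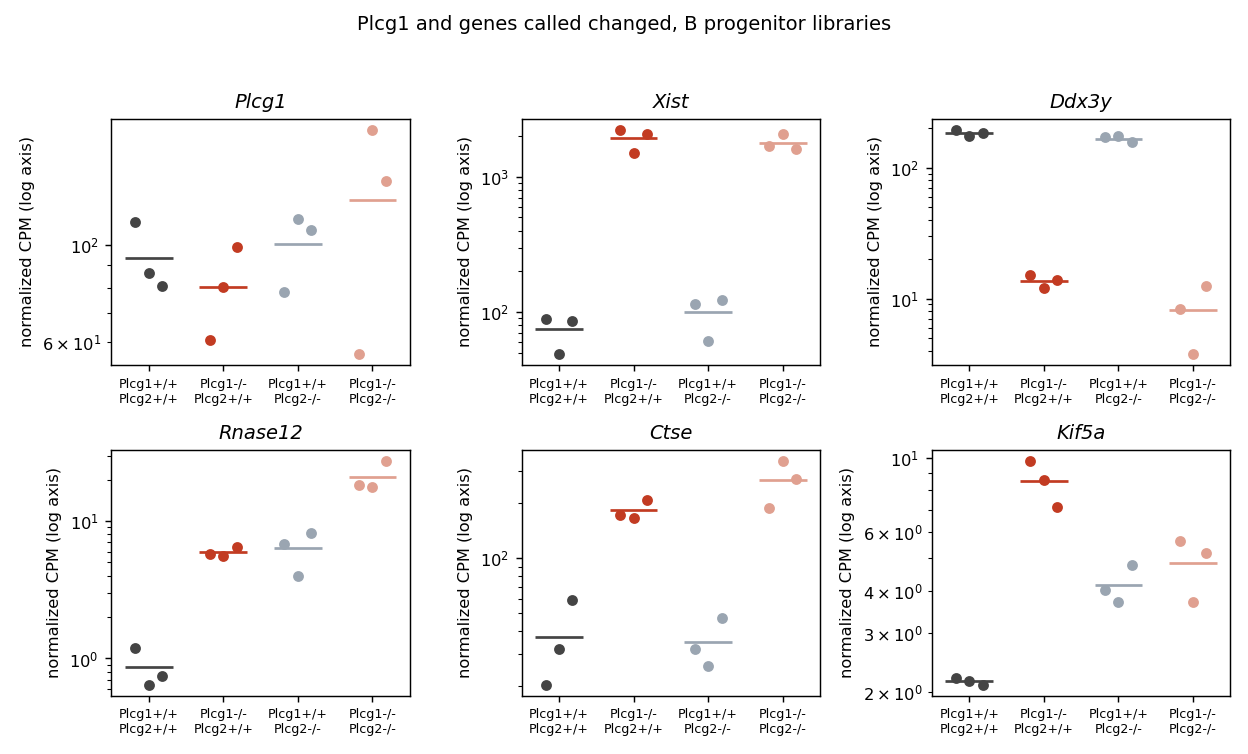
Normalized CPM (log axis) of Plcg1 and 5 genes called changed in the 12 B progenitor libraries, 1 point per library and a line at the mean of each genotype (n = 3). Plcg1 overlaps between all genotypes, Xist and Ddx3y split by Plcg1 genotype on both Plcg2 backgrounds, Ctse is high in all 6 Plcg1-/- libraries, and Kif5a is highest in the 3 Plcg1-/-Plcg2+/+ libraries.

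Outside the sex chromosomes, 3 genes rose. In bulk libraries a change in the number of cells of a type and a change in RNA per cell cannot be told apart. Rnase12, a member of the secreted ribonuclease A family, was at 1.20, 0.646 and 0.750 CPM in wild-type and at 5.78, 5.59 and 6.42 CPM in Plcg1-/-Plcg2+/+ libraries. All 3 Plcg1-/-Plcg2+/+ libraries lay above the wild-type range. The values rested on 12, 6 and 10 reads in wild-type and on 36, 43 and 37 reads in Plcg1-/-Plcg2+/+ libraries. Its mean rose 6.86-fold, from 0.865 ± 0.294 to 5.93 ± 0.437 CPM (SD, n = 3), with a log2 fold change of 2.76 ± 0.36 (SE) and an edgeR adjusted p of 0.0107. In Plcg2-null B progenitors Rnase12 was at 6.84, 3.98 and 8.17 CPM with Plcg1 and at 18.2, 17.7 and 27.5 CPM without it. These groups did not overlap either, but the log2 fold change of 1.84 ± 0.33 had an edgeR adjusted p of 0.0716. All 12 tested ribonuclease genes of the list had a log2 fold change above 0, with a median of 1.10, which was 0.37 without Plcg1-/-Plcg2+/+ replicate 1. Their median level was 10.8 CPM, and the 3000 genes at 2.31 to 13.2 CPM had a median log2 fold change of 0.44. Rnaset2b, a lysosomal and secreted ribonuclease, was at 0.2, 0.323 and 0.450 CPM in wild-type and at 5.30, 2.08 and 2.60 CPM in Plcg1-/-Plcg2+/+ libraries (log2 fold change 3.28 ± 0.64, edgeR adjusted p = 0.289).

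The gene body of Rnase12 lies at chr14:51056698-51057242 on the minus strand (mm10), and the 250 bases before its start are shown because it was the called autosomal gene with the lowest adjusted p and a promoter in the RefSeq table used here. Capitals mark GGAAA, the core letters of NFAT sites, searched on both strands, with no other motif searched.
Rnase12, chr14:51057243-51057492, minus strand, GRCm38.p6: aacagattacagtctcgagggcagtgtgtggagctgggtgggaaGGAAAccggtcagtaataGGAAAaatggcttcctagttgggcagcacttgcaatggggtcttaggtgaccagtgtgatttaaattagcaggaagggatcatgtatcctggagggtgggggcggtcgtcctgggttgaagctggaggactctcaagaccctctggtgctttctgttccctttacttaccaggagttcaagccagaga
The window holds 2 matches, and 55.6% of the 32851 promoters in the RefSeq table (18254) hold at least 1 match in the same window.

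Ctse, which encodes the intracellular aspartic protease cathepsin E (chr1:131638314-131675507, mm10), was at 20.5, 32.1 and 58.8 CPM in wild-type and at 173, 166 and 209 CPM in Plcg1-/-Plcg2+/+ libraries. The groups did not overlap, although the wild-type values spread more widely. The mean rose 4.91-fold, from 37.1 ± 19.7 to 182 ± 23 CPM (SD, n = 3), with a log2 fold change of 2.29 ± 0.35 (SE) and an edgeR adjusted p of 0.0470. In Plcg2-null B progenitors Ctse was at 32.2, 25.9 and 47.0 CPM with Plcg1 and at 187, 340 and 272 CPM without it. There too it rose, by 2.98 ± 0.37 on the log2 scale (edgeR adjusted p = 0.00596, in a comparison that called 0.153% of genes), and the difference between the backgrounds of 0.69 did not pass the test (edgeR adjusted p = 0.588). All 16 tested cathepsin genes had a log2 fold change above 0, with a median of 0.41, against 0.06 for all genes tested. That median was 0.28 without Plcg1-/-Plcg2+/+ replicate 1, 0.63 without replicate 2 and 0.92 with the no_feature share as a term. The summed CPM of the cathepsins was 1314, 1385 and 1946 in wild-type and 3112, 1472 and 2333 in Plcg1-/-Plcg2+/+ libraries, beside macrophage and monocyte marker sums of 901, 901 and 1970 against 3446, 1021 and 2746. The part of those cells in the cathepsin values was not tested. In Plcg1-/-Plcg2+/+ replicate 2 the median difference of the cathepsin list from the wild-type mean was -0.07, within the wild-type values of -0.23, -0.06 and 0.29. Among them Ctsk, a collagen-degrading protease, was at 1.40, 1.29 and 1.05 CPM in wild-type and at 2.25, 5.59 and 7.29 CPM in Plcg1-/-Plcg2+/+ libraries (log2 fold change 2.01 ± 0.52, edgeR adjusted p = 0.467). Per length, Ctse stood at 11.7 RPKM in wild-type and 57.5 RPKM in Plcg1-/-Plcg2+/+ libraries, and Rnase12 at 1.28 and 8.81 RPKM.

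Kif5a, a heavy chain of the microtubule motor kinesin-1 (chr10:127225695-127266348, mm10), was at 2.20, 2.15 and 2.10 CPM in wild-type and at 9.79, 8.58 and 7.12 CPM in Plcg1-/-Plcg2+/+ libraries. The 3 wild-type values lay close together and below all 3 others, on 20 to 28 reads each against 41 to 66. The mean rose 3.95-fold, with a log2 fold change of 1.98 ± 0.30 (SE) and an edgeR adjusted p of 0.0470. In Plcg2-null B progenitors Kif5a was at 4.02, 3.71 and 4.76 CPM with Plcg1 and at 5.62, 3.70 and 5.20 CPM without it, and these groups overlapped. The log2 fold change there was 0.22, and the difference between the backgrounds of -1.75 did not pass the test (edgeR adjusted p = 0.187). Of the other heavy chains, Kif5b was at 372, 348 and 352 CPM in wild-type and at 283, 327 and 319 CPM in Plcg1-/-Plcg2+/+ libraries, and Kif5c had a log2 fold change of 2.07 ± 0.78. Neither passed the test.

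The calls for Rnase12, Ctse and Kif5a depended on the genes tested beside them. When Xist, Tsix and the Y-linked genes were left out of the fit, no gene was called by edgeR, with 1016 higher and 586 lower genes at an unadjusted p of at most 0.05 in 14994 tested, and the adjusted p was 0.0850 for Rnase12, 0.166 for Ctse and 0.166 for Kif5a. With the no_feature share of the libraries as a term, none of these 3 genes was called (edgeR adjusted p of 0.0522, 0.0591 and 0.107, log2 fold changes 2.76, 2.57 and 1.99), while Rnaset2b was. Nor was any of them called when the 6 libraries were fitted alone (edgeR adjusted p of 0.404, 0.348 and 0.404) or thinned to the same depth (0.309, 0.128 and 0.434). Leaving out 1 of the 6 libraries at a time ended the call of Kif5a in all 6 cases, of Ctse in 5 (all but wild-type replicate 3) and of Rnase12 in 4 (all but wild-type replicate 1 and Plcg1-/-Plcg2+/+ replicate 2), with log2 fold changes of 1.83 to 2.07 for Kif5a, 2.00 to 2.77 for Ctse and 2.61 to 3.05 for Rnase12.

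The 3 autosomal genes were then followed in the libraries labelled CLP. Rnase12 was at 0.724, 0.484 and 2.58 CPM in wild-type and at 7.57, 11.3 and 5.94 CPM in Plcg1-/-Plcg2+/+ CLP libraries, and Ctse at 34.3, 41.3 and 74.0 against 185, 315 and 234 CPM. Neither gene overlapped between the genotypes there, and neither passed the test across 15209 genes (log2 fold changes 2.49 and 2.29, edgeR adjusted p of 1.00 and 0.332). Kif5a overlapped in the CLP libraries, with 8.47, 3.38 and 3.06 CPM against 13.2, 6.06 and 5.84 CPM. Neither Xist nor a Y-linked gene passed the edgeR test between these libraries. They come from the same mice, so they are not a further set of animals, and sex and genotype cannot be told apart there either. They also held B lineage transcripts at levels like those of the B progenitors, since Cd79a, a signalling chain of the B cell receptor, ranged over 107 to 897 CPM in CLP and 279 to 664 CPM in B progenitor libraries. The no_feature share was 22.2 to 33.8% in these CLP libraries, and Tsix was at 0 to 0.241 CPM there although Xist reached 2248 CPM, so the 2 sets of files differ in how reads were assigned to genes. In the test of the difference between B progenitors and CLPs, with mouse as a block, edgeR called 0 of 14910 genes (0%), with 133 higher (0.892%) and 69 lower (0.463%) at an unadjusted p of at most 0.05, and DESeq2 also called 0.

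Some genes were called by DESeq2 and not by edgeR, among them the 4 that follow. Mmp14, a membrane-anchored matrix metalloprotease, was at 2.70, 1.94 and 3.15 CPM in wild-type and at 7.70, 10.8 and 14.1 CPM in Plcg1-/-Plcg2+/+ libraries. The groups did not overlap, and the log2 fold change of 2.05 ± 0.34 had an edgeR adjusted p of 0.0954, against 2.06e-04 in DESeq2. Cfl2, a cofilin that severs actin filaments, was at 58.4, 58.1 and 56.3 CPM in wild-type and at 34.2, 33.9 and 32.8 CPM in Plcg1-/-Plcg2+/+ libraries (log2 fold change -0.78 ± 0.14, edgeR adjusted p = 0.123). The 3 values of each genotype lay close together, and Cfl2 was at 50.4, 41.8 and 43.6 against 32.7, 26.3 and 27.2 CPM in the CLP libraries of the same mice. Synj2, a phosphoinositide phosphatase, was at 7.09, 8.07 and 7.27 CPM in wild-type and at 21.2, 15.2 and 13.4 CPM in Plcg1-/-Plcg2+/+ libraries, with a log2 fold change of 1.15 and an edgeR adjusted p of 0.340. Chil1, a chitinase-like secreted protein, was at 2.20, 1.18 and 4.20 in wild-type against 14.4, 11.7 and 14.9 CPM (log2 fold change 2.41 ± 0.56, edgeR adjusted p = 0.467).

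BC002163, a transcript with no single position in the annotation used here, was at 9.89, 7.64 and 7.42 CPM in wild-type and at 1.12, 2.47 and 0.347 CPM in Plcg1-/-Plcg2+/+ B progenitors (log2 fold change -2.60 ± 0.47, edgeR adjusted p = 0.142). It was the only gene called between the CLP libraries (0.00658% of genes), where it fell from 5.14, 6.77 and 6.25 to 0.954, 0.818 and 0.693 CPM (log2 fold change -2.85, edgeR adjusted p = 0.00543). Between the Plcg2-null B progenitors its log2 fold change was -0.03. Both populations were low in the Plcg1-/-Plcg2+/+ mice.

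Beyond single genes, the direction of the differences depended on the level of the gene. Of the 15001 genes, 1093 had a higher value (7.29%) and 397 a lower value (2.65%) in Plcg1-/-Plcg2+/+ libraries at an unadjusted p of at most 0.05. The balance of directions depended on the model, with 982 higher and 1248 lower genes when the replicate number was a block. When genes were ranked into 5 equal classes by mean CPM, the median log2 fold change was 1.67 in the lowest class (0.443 to 2.31 CPM), 0.44 in the next, 0.00 in the middle class, -0.10 in the fourth and -0.16 in the highest (92.6 to 4719 CPM). The lowest class held 553 of the higher genes (18.4% of the class) and 1 of the lower ones (0.0333%), while the highest class held 7 (0.233%) and 188 (6.27%). Fitted fold changes of genes with few reads also depend on the prior count of the fit.

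This slope moved with the no_feature share of the single libraries. Each wild-type library was set against the mean of the other wild-type libraries, and each Plcg1-/-Plcg2+/+ library against the mean of all wild-type libraries. The median difference over the lowest class was 0.70, -0.21 and -0.51 in the wild-type libraries, whose no_feature shares were 71.4, 62.5 and 59.9%. It was 0.15, 2.03 and 0.68 in the Plcg1-/-Plcg2+/+ libraries, at 66.5, 87.3 and 73.6%. Within each genotype the values rose with the share, and the library with the largest share lay highest. Wild-type replicate 1 lay above Plcg1-/-Plcg2+/+ replicate 1. The smaller reference widens the wild-type values, so their size is not directly comparable with that of the other genotype. Without Plcg1-/-Plcg2+/+ replicate 2 the median of the lowest class was 0.62 and the numbers of genes at an unadjusted p of at most 0.05 were 685 higher (4.57%) and 653 lower (4.35%). With the no_feature share as a term in the model, the median of the lowest class was 0.13. The medians of the 2 highest classes were -0.10 and -0.16 without that library, and -0.09 and -0.17 with the term.

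**Figure D2:**
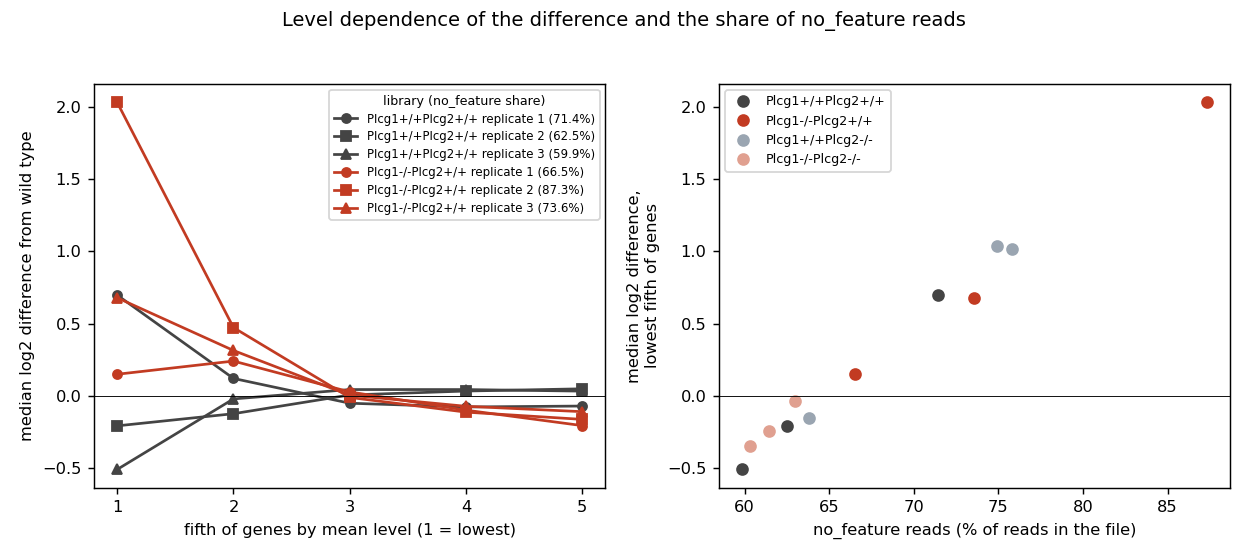
Left, median log2 difference of each library from a wild-type mean (y axis) in 5 classes of genes ranked by mean CPM (x axis, 1 = lowest), with a line per library. That mean leaves out the library itself where it is a wild-type one. Right, the value of the lowest class against the share of no_feature reads (%) in the 12 B progenitor libraries; Plcg1-/-Plcg2+/+ replicate 2, at 87.3% and 2.03, lies farthest from the others.

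The lists of pathways downstream of PLCγ1 had medians of -0.17 to 0.18 in the main fit. At an unadjusted p of 0.05, 7.29% of all genes were higher and 2.65% lower. Among 25 genes of diacylglycerol signalling the median log2 fold change was -0.08, and 1 gene in each direction passed at that p. The lower one was Prkcb, the protein kinase C isoform of B cell receptor signalling, at 630, 509 and 482 CPM in wild-type and at 310, 400 and 360 CPM in Plcg1-/-Plcg2+/+ libraries (log2 fold change -0.60 ± 0.26, edgeR adjusted p = 0.467). The higher one was Prkcq, the isoform best known from T cells, with a log2 fold change of 0.71. In the calcium and NFAT list of 19 genes the median was 0.02, and Rcan2, a calcineurin regulator, was at 0.599, 0.431 and 0.450 CPM against 2.25, 7.28 and 1.39 CPM (log2 fold change 2.86 ± 0.78, edgeR adjusted p = 0.467). None of 14 NF-kB genes (median -0.06), 13 ERK feedback inhibitors (median -0.17) and 16 AP-1 and Egr genes (median 0.18) passed at an unadjusted p of 0.05 in the main fit. Of the ERK feedback inhibitors 11 had a log2 fold change below 0, of the NF-kB genes 10, and of the AP-1 and Egr genes 5. With the replicate number as a block, 3 ERK feedback, 2 NF-kB and 2 AP-1 and Egr genes were lower at that p, and none higher. In that fit 1248 of the 15001 genes tested were lower and 982 higher. Without wild-type replicate 1 the median was -0.24 for the AP-1 and Egr and -0.51 for the ERK feedback list. Without Plcg1-/-Plcg2+/+ replicate 1 these medians were 0.63 and -0.07. Summed CPM of the AP-1 and Egr genes was 2972, 5944 and 9384 in wild-type and 2454, 4338 and 9400 in Plcg1-/-Plcg2+/+ libraries, so these immediate early genes varied more within a genotype than between the 2 genotypes.

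Among 16 genes of the IL-7 receptor pathway the median was 0.05 and none had an unadjusted p of at most 0.05. Il7r, the receptor chain used for sorting, was at 462, 507 and 317 CPM in wild-type and at 157, 396 and 286 CPM in Plcg1-/-Plcg2+/+ libraries, with overlap (log2 fold change -0.61 ± 0.44, edgeR adjusted p = 0.504). For 30 genes of the mTOR complexes and their regulators the median was -0.08. Rptor, the scaffold of mTORC1, was at 110, 105 and 101 CPM in wild-type and at 67.7, 78.4 and 90.3 CPM in Plcg1-/-Plcg2+/+ libraries without overlap (log2 fold change -0.42 ± 0.25, edgeR adjusted p = 0.475). Rictor, the scaffold of mTORC2, was at 126, 88.6 and 116 against 113, 109 and 120 CPM (log2 fold change 0.04 ± 0.14, edgeR adjusted p = 0.882), a difference within the spread.

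B lineage regulators and proliferation genes leaned towards lower values, with no gene of these lists past the adjusted threshold (lowest edgeR adjusted p 0.467). Of 22 B lineage factors 18 had a log2 fold change below 0, and the median was -0.42. Of the 22, 3 had a lower value at an unadjusted p of at most 0.05, against 2.65% of all genes. In 7 of the 22 all Plcg1-/-Plcg2+/+ libraries lay below all wild-type ones, as was the case for 9.99% of all genes. Bach2, a repressor of plasma cell fate, was at 735, 653 and 610 CPM in wild-type and at 313, 513 and 373 CPM in Plcg1-/-Plcg2+/+ libraries (log2 fold change -0.74 ± 0.31). Tcf12 (log2 fold change -0.63), an E protein, and Spib (-0.63), an Ets factor, were the other two. Tcf3, which encodes E2A, was at 1160, 1204 and 966 CPM in wild-type and at 546, 925 and 686 CPM in Plcg1-/-Plcg2+/+ libraries, and Ebf1, which commits cells to the B lineage, at 566, 776 and 612 against 222, 513 and 451 CPM. Neither overlapped, and neither passed the test (log2 fold changes -0.62 ± 0.34 and -0.72 ± 0.53, edgeR adjusted p of 0.468 and 0.511). Pax5, which holds B cell identity, had overlapping values of 177, 218 and 158 against 108, 176 and 122 CPM. Among 17 genes of pre-BCR and B cell receptor signalling 16 were below 0 with a median of -0.47, and Blk, a Src family kinase, had a log2 fold change of -0.62. That median was -0.26 without Plcg1-/-Plcg2+/+ replicate 1 and -0.76 without replicate 2.

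The DNA replication list had the most members below the wild-type range. Of its 38 genes 37 had a log2 fold change below 0, with a median of -0.30, and 12 had a lower value at an unadjusted p of at most 0.05, against 2.65% of all genes and 6.27% of the highest level class. All Plcg1-/-Plcg2+/+ libraries lay below all wild-type ones for 26 of the 38, and for 9.99% of all genes. Mcm6, a subunit of the replicative helicase, was at 628, 626 and 608 CPM in wild-type and at 486, 502 and 496 CPM in Plcg1-/-Plcg2+/+ libraries (log2 fold change -0.33 ± 0.11). Pold2, a subunit of DNA polymerase delta, was at 80.6, 94.3 and 83.9 against 57.6, 65.5 and 61.3 CPM (-0.49 ± 0.14), and Pcna, the sliding clamp, at 600, 669 and 528 against 318, 421 and 373 CPM (-0.69 ± 0.25). None of these 3 genes overlapped between the genotypes, and edgeR gave each an adjusted p of 0.467.

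In the list of mitosis and G2/M genes all 30 members tested had a log2 fold change below 0, with a median of -0.43. Of the 30, 5 had a lower value at an unadjusted p of at most 0.05. That held for 2.65% of all genes and 6.27% of the highest level class. Ccnb1, the mitotic cyclin, was at 149, 155 and 170 CPM in wild-type and at 89.7, 130 and 113 CPM in Plcg1-/-Plcg2+/+ libraries (log2 fold change -0.51 ± 0.22). Nusap1, a spindle protein, had a log2 fold change of -0.57 and Bub1, a checkpoint kinase, of -0.51. Of 23 cell cycle regulators (D-type cyclins, inhibitors and Myc genes) 4 had a lower value at that p, against 2.65% of all genes. Their median was -0.28, with Cdkn2d, an inhibitor of D cyclin kinases, at -0.48. Among the 3000 genes of the highest level class, to which most of these genes belong by their level, the median was -0.16. The shift was uneven between libraries, since the median difference of the mitosis list from the wild-type mean was -0.82, -0.17 and -0.34 in Plcg1-/-Plcg2+/+ replicates 1, 2 and 3. Without replicate 1 of that genotype its median log2 fold change was -0.30, and without replicate 2 it was -0.60. With the no_feature share as a term, the medians were -0.76 for the mitosis, -0.43 for the DNA replication, -0.76 for the B lineage and -1.04 for the pre-BCR list.

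**Figure D3:**
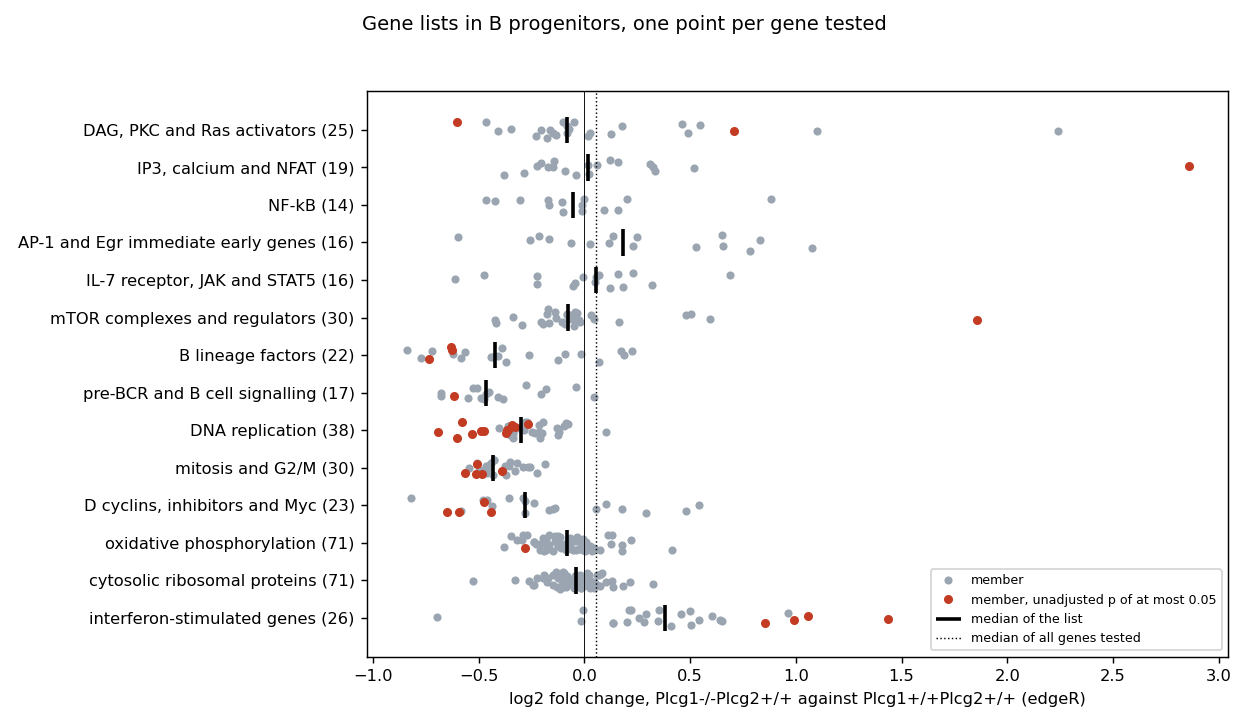
Log2 fold change (x axis) of the tested members of 14 gene lists, Plcg1-/-Plcg2+/+ against Plcg1+/+Plcg2+/+ B progenitors, 1 point per gene, with the list median as a bar and the median of all genes (0.06) as a dotted line. Mitosis, DNA replication, B lineage and pre-BCR lists lie mostly below 0 and interferon-stimulated genes mostly above it, while no point shown passed the adjusted threshold.

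Lists of housekeeping and metabolic genes had medians near 0. The median log2 fold change was -0.04 for 71 cytosolic ribosomal protein genes, -0.08 for 71 genes of oxidative phosphorylation, 0.06 for 21 genes of glycolysis and the pentose phosphate pathway, -0.01 for 28 genes of lipid synthesis and -0.04 for 14 Bcl2 family genes. At most 1 gene of each of these lists had an unadjusted p of at most 0.05. For glycolysis the median was 0.37 with the no_feature share as a term, and for the Bcl2 family it was 0.21. For 19 genes of ER stress and ATF4 the median was -0.13, and Psat1, a serine synthesis enzyme, was at 195, 211 and 215 CPM in wild-type and at 141, 171 and 149 CPM in Plcg1-/-Plcg2+/+ libraries.

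Interferon-stimulated genes were listed because Cre was induced through interferon in the donors of every genotype. According to the study's methods, that induction came weeks before transplantation and the sort. Its part in these values was not tested. Of 26 tested 23 had a log2 fold change above 0, the median was 0.38, and 4 had a higher value at an unadjusted p of at most 0.05. The median level of the list was 13.7 CPM, at the border of the second level class, with a median of 0.44 and 427 of 3000 genes higher at that p, and the middle class, with 0.00 and 87 of 3000. All Plcg1-/-Plcg2+/+ libraries lay above all wild-type ones for 8 of the 26, as was the case for 8.47% of all genes. Oasl2, an antiviral oligoadenylate synthetase-like protein, was at 5.89, 5.28 and 9.37 CPM in wild-type and at 11.4, 16.1 and 15.5 CPM in Plcg1-/-Plcg2+/+ libraries (log2 fold change 1.06 ± 0.26, edgeR adjusted p = 0.467). Zbp1, a sensor of unusual nucleic acids, had a log2 fold change of 0.85, and Ifit3 had a log2 fold change of 1.44. The list median was 0.31 without Plcg1-/-Plcg2+/+ replicate 2 and 0.54 without wild-type replicate 3.

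**Figure D4:**
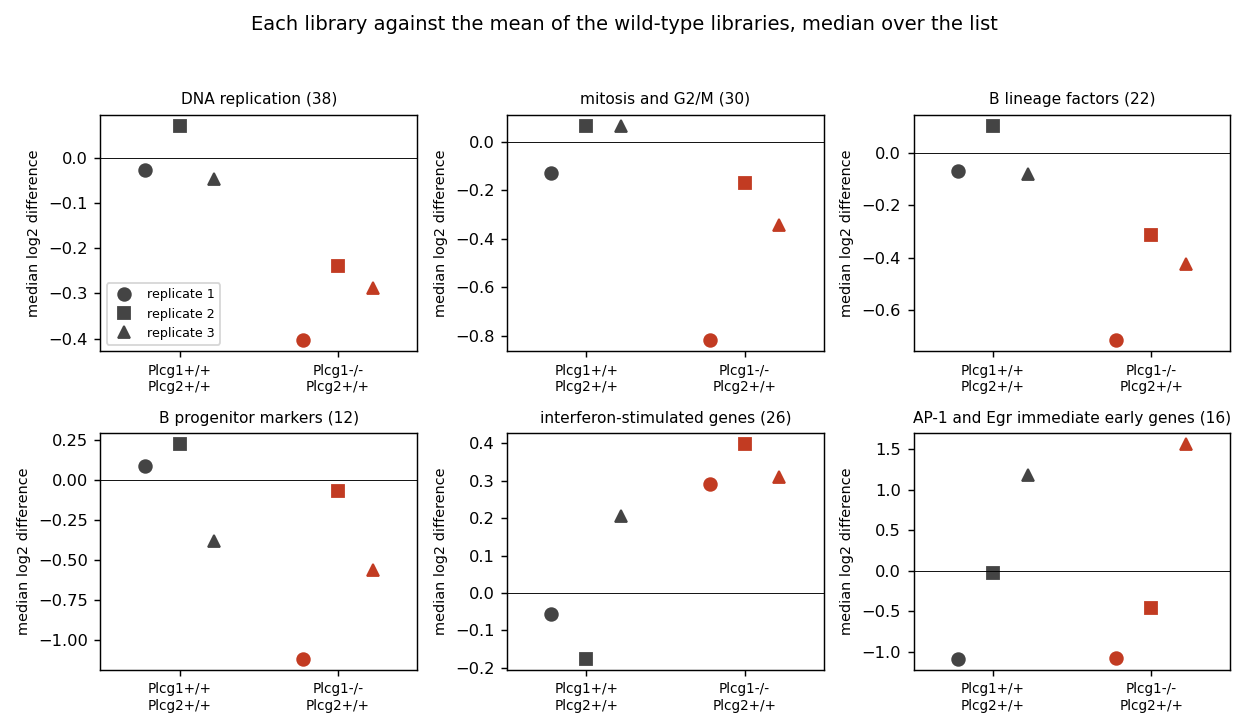
Median log2 difference from the wild-type mean (y axis) over the members of 6 gene lists in each of the 6 libraries, with a marker shape per replicate number. DNA replication, mitosis and B lineage lists lie below all wild-type libraries in the 3 Plcg1-/-Plcg2+/+ libraries and interferon-stimulated genes above them, while the AP-1 and Egr list ranges over -1.09 to 1.56 with overlap between the genotypes.

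The composition of the sorted cells was read from markers. All 12 B progenitor markers were detected in all 6 libraries, with a summed level of 4847 to 6708 CPM in wild-type and 3108 to 5591 CPM in Plcg1-/-Plcg2+/+ libraries, and their median log2 fold change was -0.50, or -0.82 without Plcg1-/-Plcg2+/+ replicate 2 and -1.08 with the no_feature share as a term. Cd79a was at 517, 664 and 464 CPM in wild-type and at 279, 411 and 336 CPM in Plcg1-/-Plcg2+/+ libraries (log2 fold change -0.68 ± 0.39, edgeR adjusted p = 0.472). Markers of other cells were present in every library. All 14 macrophage and monocyte markers had reads in all 6 libraries, summed to 901 to 1970 CPM in wild-type and 1021 to 3446 CPM in Plcg1-/-Plcg2+/+ libraries, and all 14 had a log2 fold change above 0 (median 0.74). The 10 neutrophil markers summed to 1375 to 4315 and 2435 to 7622 CPM, again with all 10 above 0 (median 0.92), none past the test. Elane, neutrophil elastase, was at 169, 253 and 467 CPM in wild-type and at 1130, 268 and 503 CPM in Plcg1-/-Plcg2+/+ libraries, so that replicate 1 of that genotype stood apart from the other 5. Without that library the median was 0.49 for the macrophage and 0.52 for the neutrophil list, and without wild-type replicate 3 the neutrophil median was 1.44.

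The 18 markers of T cells, NK cells and innate lymphoid cells summed to 151 to 219 CPM in wild-type and 221 to 490 CPM in Plcg1-/-Plcg2+/+ libraries, with a median log2 fold change of 1.18. Of these, 5 were higher at an unadjusted p of at most 0.05, against 7.29% of all genes. The median level of the list was 7.36 CPM, in the second level class, where the median was 0.44 and 427 of 3000 genes were higher at that p. Rora, a nuclear receptor of innate lymphoid cells, was at 4.29, 3.45 and 4.95 against 5.78, 14.3 and 33 CPM, and Cd3d, a T cell receptor chain, at 2.00, 3.12 and 4.87 against 7.70, 10.7 and 12.5 CPM. Without Plcg1-/-Plcg2+/+ replicate 3 the median of this list was 0.55. The 10 stem and multipotent progenitor markers summed to 148 to 271 and 183 to 417 CPM, and the 10 dendritic cell markers to 494 to 633 and 541 to 728 CPM. Medians were 0.63 for 8 basophil, mast cell and eosinophil, 0.59 for 7 megakaryocyte, 0.44 for 9 stromal and endothelial, 0.27 for 6 plasma cell and -0.27 for 7 erythroid markers. Without wild-type replicate 3 the medians were 0.79 for erythroid, 0.75 for plasma cell and 1.03 for megakaryocyte markers, and without Plcg1-/-Plcg2+/+ replicate 3 the plasma cell median was -0.0024. The basophil list had a median of 0.33 without Plcg1-/-Plcg2+/+ replicate 1. Hba-a1, Hba-a2, Hbb-b1 and Hbb-bs were listed at 0 in all 6 libraries.

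The macrophage and neutrophil marker sums were highest in Plcg1-/-Plcg2+/+ replicate 1. That library also had the lowest median differences over the B lineage, proliferation and receptor signalling lists and the highest over the cathepsin list. The T cell, NK and innate lymphoid sum was highest in replicate 3, at 490 CPM. The part of these cells in the list values was not tested. The B progenitor markers include Ebf1 and Pax5, so they are not separate from the B lineage genes. In replicate 2 of that genotype the macrophage sum of 1021 CPM and the neutrophil sum of 2435 CPM lay within the wild-type ranges, while the T cell, NK and innate lymphoid sum of 221 CPM lay above the highest wild-type value of 219. Median differences there also exceeded every wild-type library for the T cell and NK (0.57), megakaryocyte (0.64) and stromal (1.26) markers. In that library Ctse was at 166 and Rnase12 at 5.59 CPM, each above every wild-type library, and its median difference was -0.24 over the DNA replication list and -0.17 over the mitosis list, each below every wild-type library. Over the pre-BCR list it was -0.02, within the wild-type values of -0.29 to 0.18. Over the B progenitor markers it was -0.07, within the wild-type values of -0.38 to 0.22. That library was also the one with the no_feature share of 87.3%.

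**Figure D5:**
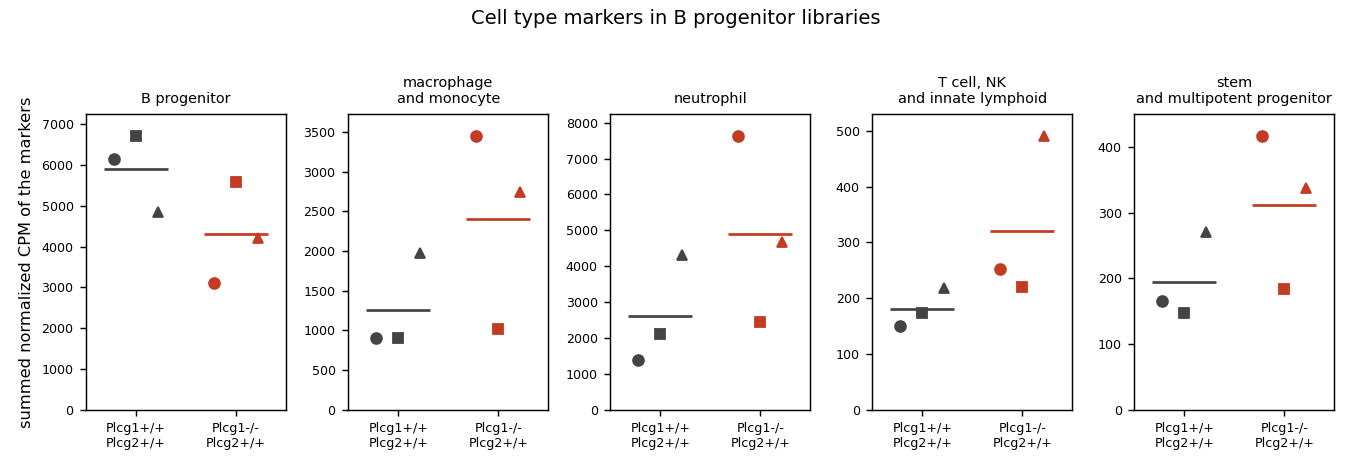
Summed normalized CPM (y axes start at 0) of 5 marker lists in the 3 Plcg1+/+Plcg2+/+ and 3 Plcg1-/-Plcg2+/+ B progenitor libraries, 1 point per library, a marker shape per replicate number and a line at the mean. B progenitor markers range over 3108 to 6708 CPM, and the other lists are highest in Plcg1-/-Plcg2+/+ replicate 1 or 3.

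The effect of PLCγ1 loss was also compared between Plcg2-intact and Plcg2-null B progenitors. In the Plcg2-null cells 23 of 15001 genes (0.153%) passed, 8 higher (0.0533%) and 15 lower (0.1%). With Xist, Tsix and the Y-linked genes left out, 4 of 14994 passed there. These libraries held 1479580 to 18959100 gene reads with Plcg1 and 2858720 to 25057200 without it. The difference between the 2 backgrounds passed the test for 4 genes (0.0267%), namely Mmp14, Serinc3, 0610039K10Rik and Eps8l1. Serinc3, a multipass membrane protein, was at 1766, 1921 and 1692 CPM in wild-type and at 1320, 1664 and 1373 CPM in Plcg1-/-Plcg2+/+ libraries, which lay lower in all 3. The log2 fold change in this comparison was -0.30 and did not pass the test, whereas in the Plcg2-null cells Serinc3 fell from 2405, 3196 and 2731 to 470, 320 and 574 CPM. Eps8l1, a regulator of actin bundling, was at 23.2, 18.3 and 17.6 CPM in wild-type and at 10.6, 11.8 and 17 CPM in Plcg1-/-Plcg2+/+ libraries (log2 fold change -0.58, edgeR adjusted p = 0.468). In the Plcg2-null cells it rose from a mean of 2.55 to 18.5 CPM (SD 1.35 and 6.59, n = 3).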

How the data were processed

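The authors sequenced poly(A)-selected RNA (NEBNext Ultra libraries, not strand-marking), and per the labels aligned reads with STAR 2.5.0a to mm10. They deposited raw read counts per gene symbol for each library, with no_feature and ambiguous reads in separate lines. The counting tool is not given in the sources used here. The no_feature and ambiguous lines were left out of library sizes and tests. In the 6 libraries the ambiguous share was 0.110 to 0.410%.

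The 12 B progenitor libraries were fitted together with edgeR 4.0.16 (R 4.3.3, limma 3.58.1): TMM factors, filterByExpr by group (15001 of 24421 symbols), glmQLFit and glmQLFTest, Benjamini-Hochberg adjustment over all genes tested. Genes counted as changed had an adjusted p no higher than 0.05 with a log2 difference of 0.5 or more in either direction. DESeq2 1.42.0, which the authors used, other scaling, filters, covariates, thinning, a replicate block and leaving out single libraries were alternatives, and fits without a library kept the 15001 genes. RPKM used the union of exon lengths per gene symbol in the GENCODE annotation of GRCm38. Level classes ranked genes by mean CPM over the 12 B progenitor libraries, and class medians of log2 fold changes came from the edgeR fits. Differences of single libraries from a wild-type mean used log2 of CPM plus 0.5. The steps were tested on simulated counts. CPM intervals and floors cover counting error only.

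Each of the 6 libraries is labelled with a mouse number that no other of the 6 has, and pairs of replicates differed by 14.3 to 27.1 times counting noise (chi-square per degree of freedom), so none was a duplicate. Named genes were those called, 8 genes of the PLCγ and IL-7 receptor question, those nearest the threshold without overlap, those with the largest change called by DESeq2 only, and the lowest p of each list, with Serinc3, 0610039K10Rik and Eps8l1 added because they passed the difference test. Members of the comparison, gene lists and markers were chosen with earlier results of these data known.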

Additional observations from a re-analysis of the deposited data

Results flagged for a closer look

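The effect of PLCγ1 loss differed between Plcg2-null and Plcg2-intact B progenitors for 4 genes, by a test of the difference itself (edgeR, adjusted p of at most 0.05). Mmp14 differed by -3.65 ± 0.49 (SE) on the log2 scale (edgeR adjusted p = 0.0342). It was at 2.70, 1.94 and 3.15 CPM in wild-type and at 7.70, 10.8 and 14.1 CPM in Plcg1-/-Plcg2+/+ libraries, but at 12.1, 17.1 and 9.53 CPM in Plcg1+/+Plcg2-/- and at 5.62, 3.19 and 4.67 CPM in Plcg1-/-Plcg2-/- libraries. It was called in none of the 12 fits that left out 1 library.

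Serinc3 (chr2:163623273-163645149, mm10) differed by -2.31 ± 0.29 (edgeR adjusted p = 0.0244) and 0610039K10Rik (chr2:163644850-163645800, mm10), a noncoding RNA that overlaps one end of it, by -2.02 ± 0.22 (edgeR adjusted p = 0.0138). 0610039K10Rik was at 139, 106 and 115 CPM in wild-type and at 92.9, 74.9 and 89.2 CPM in Plcg1-/-Plcg2+/+ libraries, and at 2.01 to 2.90 CPM in the wild-type and Plcg1-/-Plcg2+/+ CLP libraries. Without strand, reads of the overlapping pair cannot be told apart. Serinc3 was called in 3 and 0610039K10Rik in 7 of the 12 fits without 1 library.

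Eps8l1 (chr7:4460638-4480487, mm10) differed by 3.75 ± 0.51 (edgeR adjusted p = 0.0342) and was called in 2 of the 12 fits.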

How the results depend on the processing

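The count of 9 changed genes was 24 in DESeq2, 0 when the sex-linked genes were left out, and 5 to 8 without 1 library, with 5 when Plcg1-/-Plcg2+/+ replicate 3 was left out, which also ended the call of Kdm5d. It was 8 with RLE scaling, 8 without the filter, 7 with the no_feature share as a term, 6 with the 6 libraries alone and 6 after thinning. The 1490 genes at an unadjusted p of at most 0.05 became 2755 without the filter, 2657 in DESeq2, 2796 with the no_feature term, and 467 to 2040 without 1 library (467 without wild-type replicate 2), and 2230 (982 higher, 1248 lower) with the replicate block. DESeq2 without Plcg1-/-Plcg2+/+ replicate 2, chosen after seeing the data, called 12 genes, all 9 among them. For PLCγ1 loss in Plcg2-null cells, 23 changed genes became 144 in DESeq2, 4 without the sex-linked genes and 8 to 36 without 1 library. The 4 genes of the difference between backgrounds became 858 in DESeq2, 0 with the no_feature term and 0 to 3 without 1 library. The difference in no_feature share stayed between 5.44 and 15.9 percentage points without 1 library.

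Over all tested genes, the deviations of same-numbered wild-type and Plcg1-/-Plcg2+/+ libraries had correlations of -0.47, -0.07 and 0.40. The main fit did not pair samples by number. Correlations over all genes at once cannot exclude a structure by number in part of the genes. Summed CPM of the AP-1 and Egr, the NF-kB and the ERK feedback lists was lowest in the library numbered 1 and highest in that numbered 3 in each of the 4 genotypes. With a replicate block 9 genes were called, 8 of them shared, with Kif5a lost and Chil1 gained, and Plcg1 loss in Plcg2-null cells gave 46. Over all 15001 genes the block changed the number of lower genes at an unadjusted p of at most 0.05 from 397 to 1248. By list that number went from 5 to 25 (mitosis), 12 to 24 (DNA replication), 3 to 12 (B lineage) and 0 to 3 (ERK feedback). The AP-1 and Egr median went from 0.18 to -0.083. Between B progenitors and CLPs edgeR called 0 genes under each alternative run.

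The log2 fold change of Rictor ranged from -0.092 (without wild-type replicate 2) to 0.151 when 1 library was left out, and was -0.012 without Plcg1-/-Plcg2+/+ replicate 3. The adjusted p of Rnase12 ranged from 0.00446 to 0.404 in edgeR. The causes were not tested. A count of 3 reads, 0.211 to 0.523 CPM, is the floor of detection in these libraries.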
